A study of Solanum lycopersicum with 12 samples.

Results

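The genes described here are 46 tomato loci listed as nuclear genes for the chlorophyll a/b-binding proteins, the subunits of photosystem I and photosystem II, plastocyanin, the small subunit of Rubisco and Rubisco activase. They were chosen by locus identifier, with earlier results of these data known. Of the 46 loci, 45 had a row among the 33976 genes of the deposited table, and Solyc05g056070 was not analysed here. The table gives identifiers without gene names. The gene table at hand holds no identifiers of this type, so it could pair none of the 46 loci with a name (0 matched). The loci are therefore given by identifier, and the protein behind each single locus is not stated. Leaf RNA of the cultivar Red Setter was compared between the wild type and the edited lines *slmyb60Cr1* and *slmyb60Cr2*, with 4 biological replicates of each, every replicate pooling leaf discs from 4 plants. Both edited lines were homozygous T2 plants without Cas9, and each carries 1 deletion allele of the transcription factor gene *SlMYB60*, so each line stands for a single editing event. The study's methods mention no water deficit for the RNA plants, whereas the sample labels give water stress for all 12 libraries and describe a halt of irrigation for 14 days. Whichever holds, it is shared by the 3 genotypes.

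Light is captured in the thylakoid membranes of the chloroplast by chlorophyll held in the chlorophyll a/b-binding proteins, which surround both photosystems. Photosystem II draws electrons from water, plastocyanin carries them from the cytochrome complex to photosystem I, and the energy gained drives carbon fixation by Rubisco, which Rubisco activase keeps in its working form. The proteins listed here are encoded in the nucleus, made in the cytosol and imported into the chloroplast, and their transcripts are among the most abundant of a green leaf. In plants their transcript levels are known to depend on light and on the circadian clock. The study also measured the light response of photosystem II efficiency in these lines. It reports no average effect of genotype on this efficiency, only an interaction of genotype with light intensity. That measurement was made on younger plants under control conditions, so it is not matched to the RNA samples.

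Values are TPM, an estimate of transcript abundance scaled for transcript length that sums to 1000000 in each library and so allows levels to be compared between loci. TPM keeps no record of the number of reads, so the depth behind a value is unknown from the table. The paper lists read totals for each library, which were not used here. The edited gene itself, *SlMYB60* (Solyc10g081490), was at 12.9, 12.3, 19.3 and 21.6 TPM in the wild type and ranged from 1.57 to 3.15 TPM over the 8 edited libraries. The groups did not overlap (two-sided exact permutation test of the TPM values, p = 0.0286 in either line, which is the lowest value possible with 4 against 4 libraries). The paper describes truncated *SlMYB60* transcripts in the edited lines. How far the missing sequence lowers these TPM values was not tested. The label of leaf could not be checked against named markers, since no identifier was paired with a name. The listed loci together took at least 1.45% of all TPM in each of the 12 libraries, though some single loci were low. Solyc02g085950 and Solyc03g005760 ranked 3 and 6 among all genes of the table by mean TPM.

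The main pattern was a large and shared difference between replicates of the same genotype. The 45 loci together took 2.82, 3.72, 3.94 and 4.76% of all TPM in wild type replicates 1 to 4. In *slmyb60Cr1* they took 1.45, 2.77, 4.44 and 3.00%, and in *slmyb60Cr2* 1.81, 2.00, 5.23 and 3.56%. The lowest library, *slmyb60Cr1* replicate 1, and the highest, *slmyb60Cr2* replicate 3, thus both came from edited lines and differed 3.60-fold, and the ranges of the 3 genotypes overlapped. The genotype means were 3.81 ± 0.799% in the wild type, against 2.91 ± 1.22% in *slmyb60Cr1* and 3.15 ± 1.59% in *slmyb60Cr2* (SD, n = 4 each). Relative to the wild type mean, the edited means differed by −23.5% and −17.4%, which is within the spread between replicates. Both values turned on single libraries. In *slmyb60Cr1* the difference was −10.7% without its replicate 1 and −36.8% without its replicate 3. In *slmyb60Cr2* it was −5.64% without its replicate 1, −7.32% without its replicate 2, −35.6% without its replicate 3 and −9.90% without wild type replicate 4. In bulk leaf discs, fewer cells of a type and less RNA per cell cannot be told apart.

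**Figure D1:**
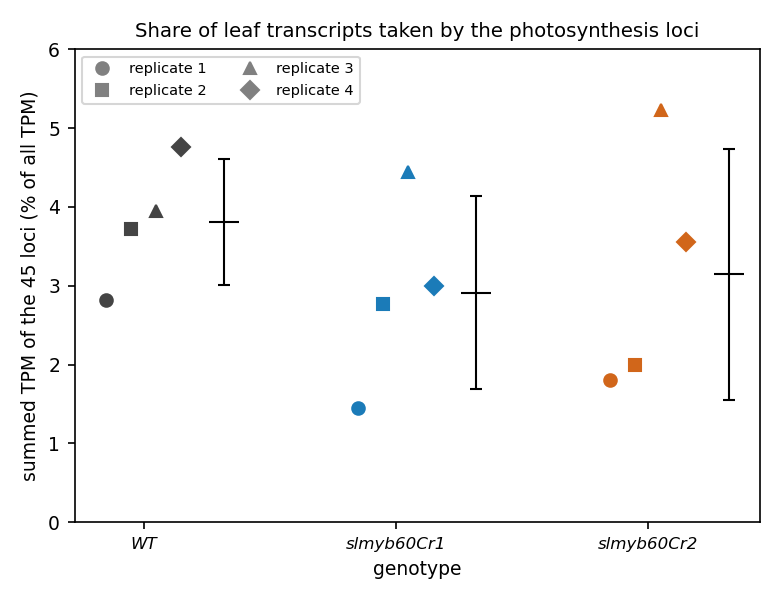
Summed TPM of the 45 loci as a percentage of all TPM (vertical axis) in each library, by genotype; symbols give the replicate number, and the bar beside each group is the mean ± SD of 4 libraries. The wild type spans 2.82 to 4.76%, inside the 1.45 to 5.23% covered by the 8 edited libraries.

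Nearly all of the loci shared this profile. A limit of 0.5 TPM in 4 or more libraries left 43 loci, of which 33 had their lowest value of all 12 libraries in *slmyb60Cr1* replicate 1, and 29 had their highest in *slmyb60Cr2* replicate 3. Within the wild type, 39 of the 43 were lowest in replicate 1 and 39 were highest in replicate 4. Within *slmyb60Cr1*, 42 were lowest in replicate 1 and 42 highest in replicate 3. Within *slmyb60Cr2*, 42 were highest in replicate 3, and 30 were lowest in replicate 1 and 12 in replicate 2. The library labels name no batch, and the replicate numbers stand for no shared date or place that the labels give.

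The loci differed in how far they followed the shared profile. For each locus, the deviations of log2(TPM + 0.1) from its genotype means were set against the mean deviation of the other 42 loci, and the slope of this line was taken as a description over 12 libraries. A slope of 1 means that a locus moved by as much as the others did on average. The slope was between 0.5 and 1.5 for 34 loci, over 1.5 for 4 and under 0.5 for 5. One of these 5, Solyc09g011080, was the only locus that ran against the others, with a slope of −0.63. Among the loci with a positive slope, Solyc06g083680 was the flattest, at 0.295. It was at 200, 205, 229 and 237 TPM in wild type replicates 1 to 4, 196, 219, 243 and 218 TPM in *slmyb60Cr1* and 162, 156, 272 and 210 TPM in *slmyb60Cr2*. The genotypes overlapped throughout for this locus, and its highest library was only 1.74-fold above its lowest.

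By median, slopes were higher among loci of lower abundance, though several single loci departed from this. The most abundant locus, Solyc02g085950, had a slope of 1.17, and Solyc09g011080, with a mean under 10 TPM, had −0.63. The median slope was 0.772 over the 7 loci with a mean of at least 1000 TPM, 0.940 over the 24 with 100 to 1000 TPM, 1.30 over the 9 with 10 to 100 TPM and 1.42 over the 3 tested loci under 10 TPM. Solyc12g006140, with a slope of 2.00, was at 9.31, 12.9, 26.4 and 44.9 TPM in the wild type. It was at 2.77, 11.98, 36.0 and 11.4 TPM in *slmyb60Cr1* and at 5.23, 4.71, 66.5 and 11.2 TPM in *slmyb60Cr2*. Solyc02g070970 had the steepest slope, 2.76, and went from 0.116 TPM in *slmyb60Cr1* replicate 1 to 19.0 TPM in *slmyb60Cr2* replicate 3. Both loci thus had their highest and their lowest library within the edited lines, and all 3 genotypes overlapped. How counting error weighs on the lowest of these values cannot be given from TPM.

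**Figure D2:**
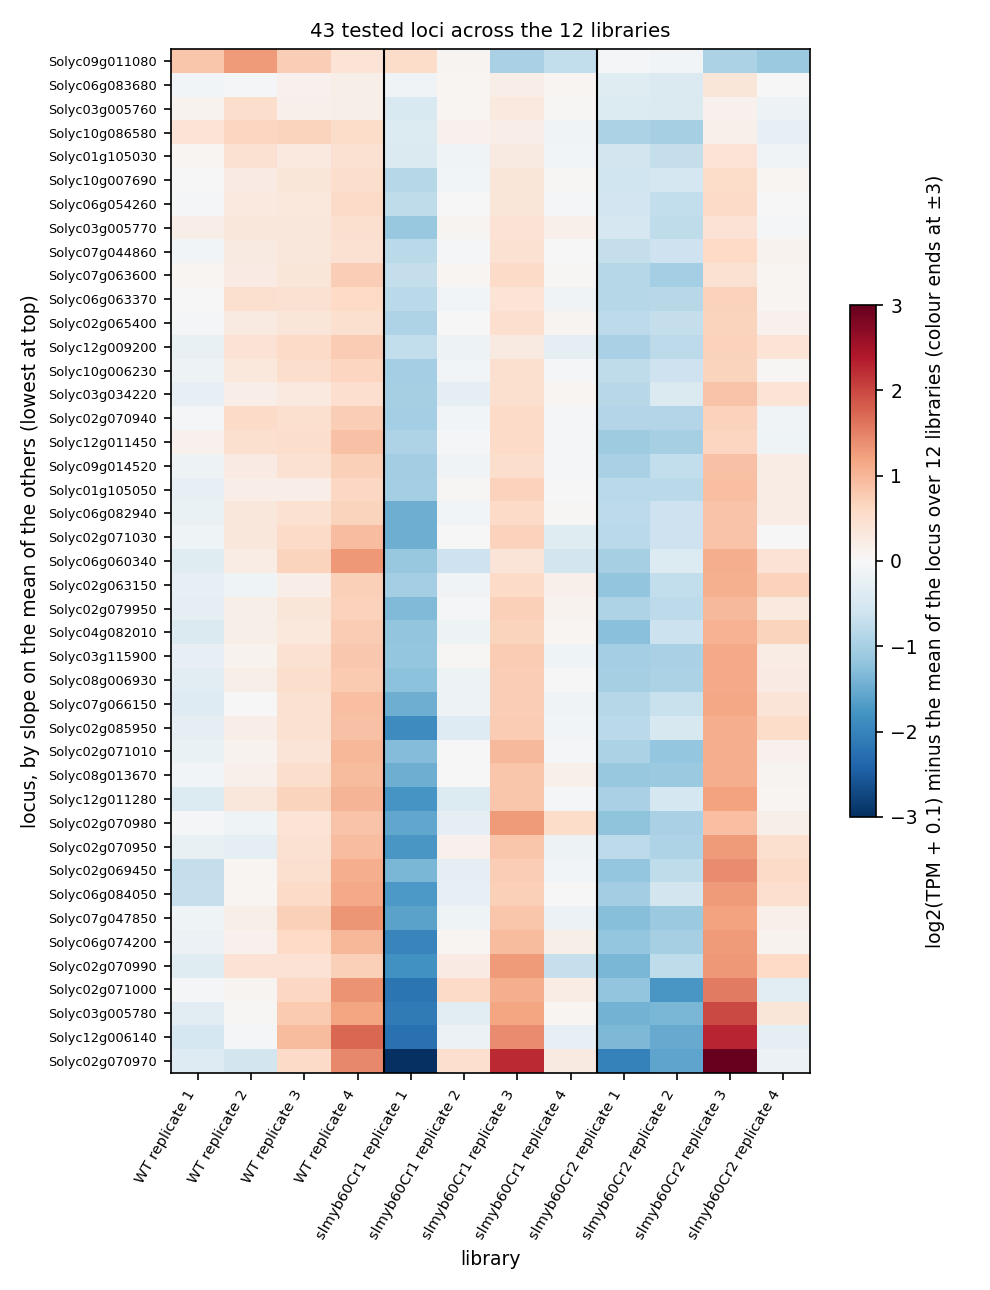
Deviation of log2(TPM + 0.1) from the mean of each locus over 12 libraries (colour, ends at ±3) for the 43 tested loci (rows, ordered from the lowest slope on the mean of the other loci at the top to the highest at the bottom) in the 12 libraries (columns). Replicate 1 of *slmyb60Cr1* is the lowest library for 33 rows and replicate 3 of *slmyb60Cr2* the highest for 29, and the top row, Solyc09g011080, runs the other way.

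A few loci made up most of the sum. Solyc02g085950 alone accounted for 26.4% of the mean summed TPM, Solyc03g005760 for 16.4% and Solyc03g034220 for 9.27%, which together came to 52.1%. Solyc02g085950 was at 6262, 8719, 10419 and 13977 TPM in wild type replicates 1 to 4, at 2067, 5842, 12800 and 7175 TPM in *slmyb60Cr1* and at 4306, 5408, 16268 and 11109 TPM in *slmyb60Cr2*. Its level differed 7.87-fold between the lowest and highest library, with overlap of all 3 genotypes, and the differences between genotypes did not exceed the spread (exact permutation test, two-sided, 4 libraries against 4, p = 0.314 for *slmyb60Cr1* and p = 0.886 for *slmyb60Cr2*). Solyc03g005760 varied far less. It was at 5699, 7610, 5836 and 5989 TPM in the wild type, 3868, 5460, 6424 and 5402 TPM in *slmyb60Cr1* and 3945, 3888, 5770 and 4740 TPM in *slmyb60Cr2*. Only *slmyb60Cr2* replicate 3 overlapped the wild type in the second line (exact permutation test, two-sided, 4 libraries against 4, p = 0.0571, and p = 0.286 for *slmyb60Cr1*).

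Because these loci moved by different amounts, the make-up of the sum changed between libraries. Solyc02g085950 was 14.2% of the sum in *slmyb60Cr1* replicate 1, where the sum was lowest, and 31.1% in *slmyb60Cr2* replicate 3, where it was highest. Solyc03g005760 went from 26.7% to 11.04% between the same libraries. The share of Solyc02g085950 did not follow the size of the sum throughout. It was 27.1% in *slmyb60Cr2* replicate 2, where the sum was 2.00% of all TPM. In wild type replicate 3 it was 26.4% at a sum of 3.94%, and it was highest in *slmyb60Cr2* replicate 4, at 31.2%. Solyc03g034220 was a steady part, from 8.49% to 10.6% over the 12 libraries. Without Solyc02g085950, the rest of the loci took 2.82 ± 0.482% of all TPM in the wild type, against 2.22 ± 0.783% in *slmyb60Cr1* and 2.22 ± 1.04% in *slmyb60Cr2* (SD, n = 4 each), so the wide range did not rest on the most abundant locus.

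Some of the loci carry neighbouring identifiers, which in tomato mark neighbouring genes. The run of 8 loci from Solyc02g070940 to Solyc02g071030 on chromosome 2 summed to 1451 ± 377 TPM in the wild type, 1068 ± 533 TPM in *slmyb60Cr1* and 1024 ± 636 TPM in *slmyb60Cr2* (SD, n = 4 each). Most of it came from Solyc02g070940, which held between 49.6% and 62.4% of the run in any library. Solyc02g071010 held 17.1 to 25.2% and Solyc02g071030 14.3 to 21.0%, while each of the other 5 stayed at 4.08% or less. Solyc02g070940 was thus the leading locus of this run in all 12 libraries. The run of 3 loci on chromosome 3 summed to 7971 ± 909, 6609 ± 1570 and 5802 ± 1367 TPM in the same order, with 75.5 to 86.7% of it from Solyc03g005760. Its minor locus Solyc03g005780 held 0.149% of this run in *slmyb60Cr1* replicate 1 and 1.503% in *slmyb60Cr2* replicate 3. Where neighbours have near-identical sequences, Salmon may divide shared reads between them, so the split within a run is less certain than its sum.

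The replicate spread of these loci was set against that of all 21218 genes tested. The median SD within genotypes was 0.758 on the log2(TPM + 0.1) scale for the 43 loci and 0.185 for all genes tested. Among the 4196 genes with a mean of at least 50 TPM, the median SD was 0.133, against 0.660 for the 33 loci of that level, and 3.31% of those 4196 genes had an SD at least as large as this median. By genotype, wild type replicates gave a median SD of 0.423 over the 43 loci, *slmyb60Cr1* gave 0.766 and *slmyb60Cr2* gave 0.893, and that of all genes tested was 0.158, 0.183 and 0.166. Between the highest and the lowest replicate, the median fold was 1.95 for the wild type, 3.58 for *slmyb60Cr1* and 3.74 for *slmyb60Cr2*. At least a 2-fold range was seen for 20 of the 43 loci in the wild type, against 39 in *slmyb60Cr1* and 41 in *slmyb60Cr2*. Whether the edited lines are more variable was not tested. The loci move together, so these counts rest on 4 libraries for each genotype and not on 43 separate measurements.

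**Figure D3:**
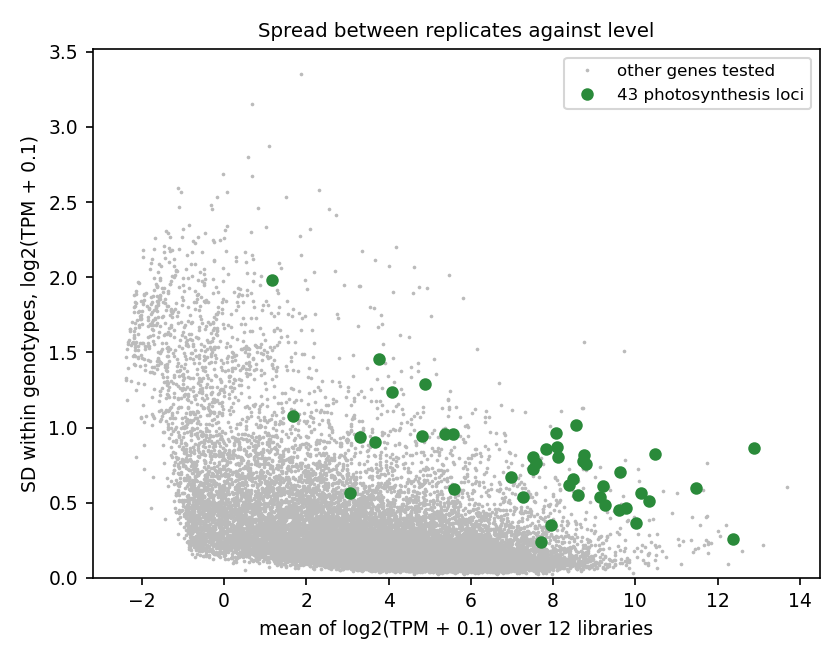
Pooled SD within genotypes (vertical axis) against mean level (horizontal axis), both of log2(TPM + 0.1), for the 43 tested loci (green) and the other genes tested (grey). Loci above a mean of 50 TPM have a median SD of 0.660, against 0.133 for all genes of that level.

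The shared profile was not particular to the listed loci. Of the 21175 other genes tested, 438 (2.07%) followed the mean deviation of the 43 loci with a Pearson's r above 0.9 over the 12 libraries, and 591 (2.79%) ran against it with r below −0.9. Among the loci, 40 of the 43 had r above 0.9 with the mean of the other 42 (median 0.979). These coefficients are a description without a test, over libraries whose genotype means had been taken out.

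A further 6 loci had been listed as markers of the epidermis and the phloem and of dehydration, chlorophyll breakdown and the circadian clock. The same gene table could pair none of them with a name (0 of 6 matched), so they too are given by identifier and without a role. None was at 0 TPM in any library, and their summed TPM was between 2105 and 2492 in the wild type, 2108 and 2983 in *slmyb60Cr1* and 1792 and 2452 in *slmyb60Cr2*. One of the 6, Solyc08g080090, mirrored the photosynthesis loci, with a slope of −1.05 on their mean deviation. It was at 574, 468, 422 and 248 TPM in the wild type, 1227, 649, 292 and 390 TPM in *slmyb60Cr1* and 708, 505, 178 and 274 TPM in *slmyb60Cr2*. Its highest library was thus *slmyb60Cr1* replicate 1 and its lowest *slmyb60Cr2* replicate 3, the reverse of the summed photosynthesis loci. The slopes of the other 5 loci lay between −0.54 and 0.15, on the same scale. Between genotypes, 2 of the 6 loci had all 8 edited libraries below all 4 wild type libraries (2.22% of all genes tested), and 0 had them all above. Solyc01g091630 was at 71.6 to 82.7 TPM in the wild type and at 64.5 TPM or less in the edited libraries. Solyc10g005080 was at 12.6 to 14.6 TPM in the wild type and at 6.10 to 11.1 TPM in the edited libraries. The sum of the 6 does not show these differences, since its largest part came from Solyc11g017010, at 1179 to 1581 TPM. The part of any of the 6 in the replicate pattern or in the differences between genotypes was not tested.

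To ask whether the edited lines differed from the wild type in these loci, limma was fitted to the log2(TPM + 0.1) values of all 21218 genes and 12 libraries, its variance prior following the mean level, and p-values were adjusted by Benjamini-Hochberg. A locus was called when its adjusted p was under 0.05 and its log2 fold change exceeded 1 in size. No locus was called in *slmyb60Cr1* (0 of 43, where 0.669% of all genes were called), and 0 of 43 passed the adjusted p with any fold change (1.69% of all genes). With array quality weights limma called 1 of the 43 there, Solyc09g011080. At an unadjusted p below 0.05, limma gave 2 of the 43 in *slmyb60Cr1*, both lower (17.1% of all genes in either direction, 8.87% lower). In *slmyb60Cr2*, 2 of the 43 loci fell, or 4.65%, where 0.273% of all genes were called lower and 1.4% in either direction. The same 2 were those past the adjusted p with any fold change (7.41% of all genes). At an unadjusted p below 0.05, limma gave 5 of the 43, all lower (23.1% of all genes in either direction, 7.81% lower). All 4 libraries of a line lay below all 4 wild type libraries for 1 locus in *slmyb60Cr1* (5.87% of all genes) and for 2 in *slmyb60Cr2* (4.96% of all genes). Both lines share the same 4 wild type libraries, so their values are given side by side and are not independent.

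The fitted difference was below 0 for 42 of the 43 loci in *slmyb60Cr1* (54.7% of all genes) and for 43 of 43 in *slmyb60Cr2* (42.6% of all genes). The median log2 fold change of the loci was −0.48 in *slmyb60Cr1*, with a range from −1.09 to 0.01, and −0.46 in *slmyb60Cr2*, with a range from −1.36 to −0.16. The medians over all genes tested were −0.02 and 0.04. As the loci share their profile, this common sign amounts to 1 observation for each library. The median of the loci was −0.11 in *slmyb60Cr1* without its replicate 1, −0.77 without its replicate 3 and −0.31 without wild type replicate 4. In *slmyb60Cr2* the median was −0.24 without its replicate 1, −0.28 without its replicate 2 and −0.81 without its replicate 3. With array quality weights the medians were −0.31 in *slmyb60Cr1* and −0.75 in *slmyb60Cr2*.

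The precision was low for these loci. The median standard error of the log2 fold change was 0.48 for the 43 loci and 0.13 for all genes tested. The 95% interval of the difference included 0 for 41 loci in *slmyb60Cr1* and 38 in *slmyb60Cr2*. It reached below −1 for 40 and 41 of the 43 loci, in the same order. A fall past the fold threshold was therefore within the interval for most loci that were not called. For Solyc02g085950, the most abundant, the interval ran from −1.94 to 0.52 in *slmyb60Cr1* and from −1.46 to 1.00 in *slmyb60Cr2*. The flat locus Solyc06g083680 had the narrowest bounds among those named, from −0.33 to 0.35 and from −0.50 to 0.19.

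**Figure D4:**
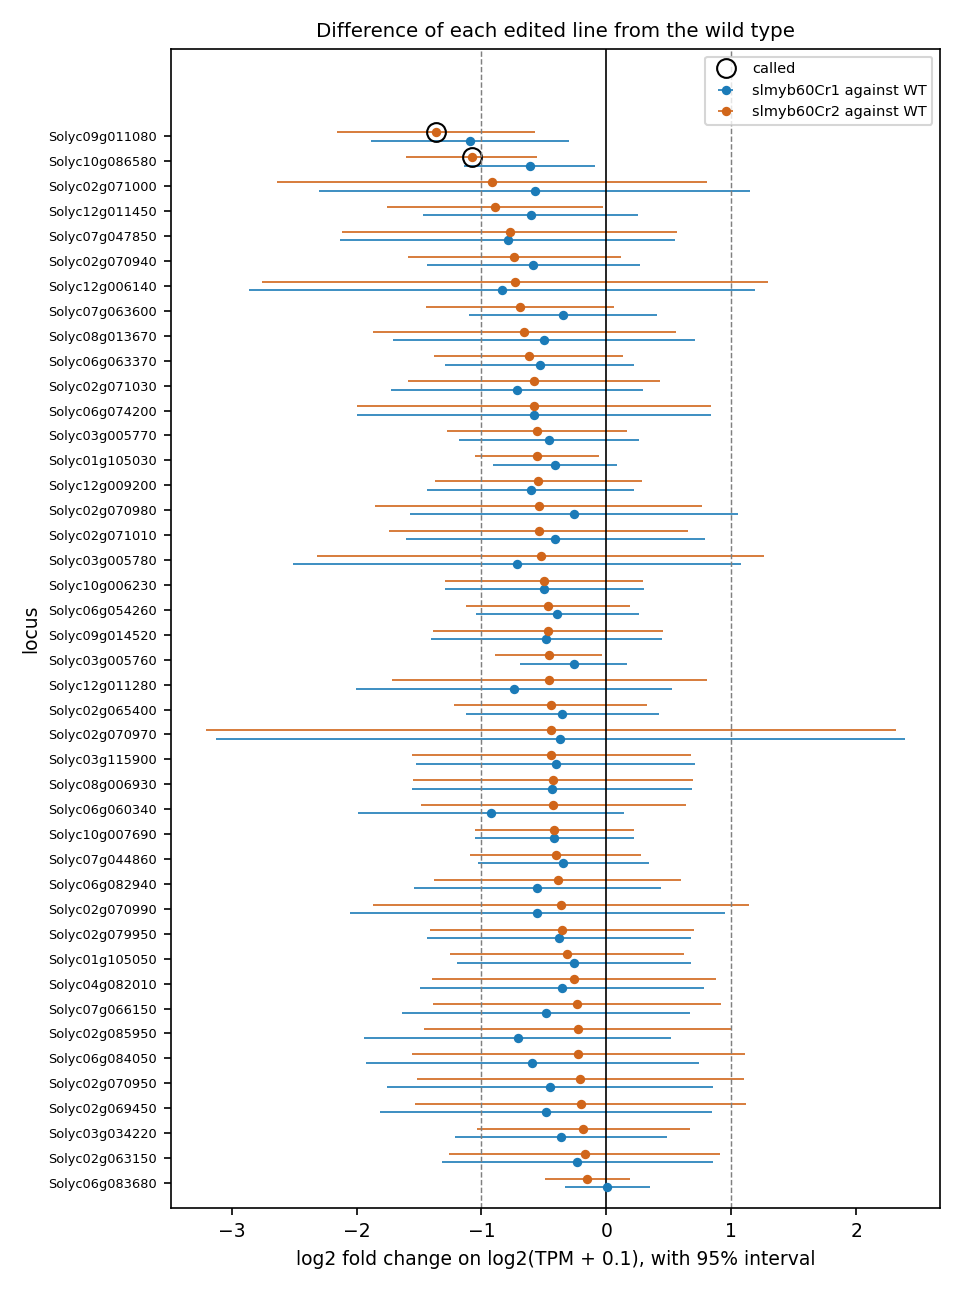
Log2 fold change on log2(TPM + 0.1) with its 95% interval (horizontal axis; dashed lines at −1 and 1) of the 43 tested loci (rows, by the value in *slmyb60Cr2*) in *slmyb60Cr1* (blue) and *slmyb60Cr2* (orange) against the wild type; circles mark the called values. Only Solyc09g011080 and Solyc10g086580 in *slmyb60Cr2* are circled, and 38 intervals of that line include 0.

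Solyc10g086580 was the only locus with all 8 edited libraries below all 4 wild type libraries (1 of 43, or 2.33%, where 2.22% of all genes tested showed this). It was at 1377, 1610, 1632 and 1502 TPM in the wild type, 780, 1127, 1176 and 957 TPM in *slmyb60Cr1* and 531, 517, 1142 and 872 TPM in *slmyb60Cr2*. The means were 1530 ± 117, 1010 ± 180 and 765 ± 300 TPM (SD, n = 4 each), so that the edited lines stood at 66.0% and 50.01% of the wild type. By the exact permutation test (two-sided, 4 libraries against 4) p was 0.0286 in both lines, its lowest possible value. This p follows from the lack of overlap and was not adjusted for the choice among 43 loci. Solyc10g086580 fell in *slmyb60Cr2*, with a log2 fold change of −1.08 (standard error 0.24, limma adjusted p = 0.0227). In *slmyb60Cr1* the log2 fold change was −0.61 (95% interval −1.14 to −0.09, limma adjusted p = 0.212) and was not called. The call in *slmyb60Cr2* was lost when 1 of 4 libraries was left out, with limma adjusted p = 0.0611 without wild type replicate 2, 0.0588 without wild type replicate 3, 0.0510 without *slmyb60Cr2* replicate 1 and 0.0641 without *slmyb60Cr2* replicate 2. Over the 21 alternatives its log2 fold change there stayed between −1.30 and −0.92 and its limma adjusted p between 0.003987 and 0.0641.

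Solyc09g011080, the locus that ran against the others, was low throughout. It was at 14.9, 20.3, 13.9 and 10.99 TPM in the wild type, 12.2, 8.72, 4.13 and 4.92 TPM in *slmyb60Cr1* and 8.02, 7.84, 4.25 and 3.75 TPM in *slmyb60Cr2*. All *slmyb60Cr2* libraries lay below the wild type, which by itself gives the lowest possible permutation p. Replicate 1 of *slmyb60Cr1* lay above wild type replicate 4 (exact permutation test on TPM, two-sided, 4 libraries against 4, p = 0.0286 for *slmyb60Cr2* and p = 0.0571 for *slmyb60Cr1*). Its means of 15.0 ± 3.87, 7.49 ± 3.72 and 5.97 ± 2.28 TPM (SD, n = 4 each) put the edited lines at 49.9% and 39.7% of the wild type. It fell in *slmyb60Cr2*, with a log2 fold change of −1.36 (standard error 0.36, limma adjusted p = 0.0443), close to the threshold. In *slmyb60Cr1* the log2 fold change was −1.09 (95% interval −1.89 to −0.30, limma adjusted p = 0.149), and with array quality weights the locus was called there as well (limma adjusted p = 0.0316, range over the 21 alternatives 0.0281 to 0.339). Of the 12 fits without 1 of the libraries, 9 no longer called the locus in *slmyb60Cr2*, and over the 21 alternatives limma's adjusted p ran from 0.006693 to 0.119 while the log2 fold change stayed between −1.53 and −1.14. Those 9 fits gave a limma adjusted p of 0.0937, 0.119, 0.08865 and 0.0575 without wild type replicates 1 to 4, 0.0585 and 0.0504 without *slmyb60Cr1* replicates 2 and 4, and 0.0646, 0.0965 and 0.119 without *slmyb60Cr2* replicates 2 to 4.

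Both called loci were also set against the sum of the other 43 loci of the table. As they were picked for being called lower in *slmyb60Cr2*, these shares are a description and add no support to the calls. Solyc10g086580 amounted to 4.31 ± 0.784% of that sum in the wild type, against 3.99 ± 1.29% in *slmyb60Cr1* and 2.61 ± 0.332% in *slmyb60Cr2* (SD, n = 4 each). The highest *slmyb60Cr2* library, at 3.03%, lay below the lowest wild type library, at 3.26%, whereas *slmyb60Cr1* went from 2.72% to 5.69% and enclosed the wild type. Solyc09g011080 amounted to 0.0238 to 0.0570% of the same sum in the wild type and to 0.00832 to 0.0458% in *slmyb60Cr2*, with overlap.

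**Figure D5:**
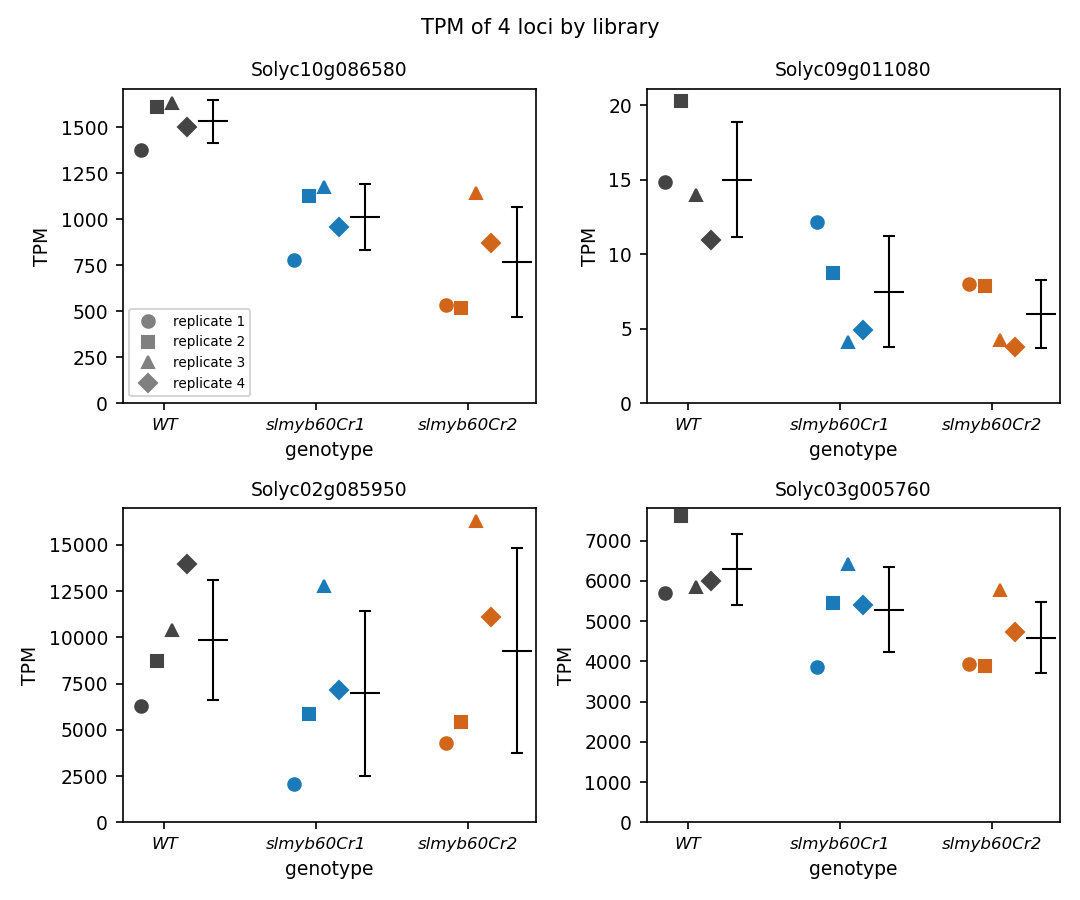
TPM (vertical axes, from 0) in each library by genotype for the called loci Solyc10g086580 and Solyc09g011080 and the abundant loci Solyc02g085950 and Solyc03g005760; symbols give the replicate number and bars the mean ± SD of 4 libraries. For Solyc10g086580 the 8 edited libraries sit between 517 and 1176 TPM, below the wild type at 1377 to 1632 TPM, while for Solyc02g085950 the genotypes overlap.

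The next loci did not pass the test and are given for their values. Solyc12g011450 was at 367, 470, 485 and 616 TPM in the wild type and at 161, 168, 529 and 307 TPM in *slmyb60Cr2*, with a log2 fold change of −0.89 (limma adjusted p = 0.204). Solyc01g105030 was at 259, 342, 305 and 341 TPM in the wild type and at 170, 151, 331 and 231 TPM in *slmyb60Cr2*, with a log2 fold change of −0.56 (limma adjusted p = 0.167). In both, replicate 3 of *slmyb60Cr2* lay within the wild type values and the other 3 libraries below them. Solyc06g060340 had the largest difference between the edited lines, at 87.5, 124, 251 and 131 TPM in *slmyb60Cr1* against 95.3, 145, 404 and 258 TPM in *slmyb60Cr2*. The log2 difference of 0.50 (95% interval −0.56 to 1.56) did not pass limma's adjusted p (0.673).

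Between the edited lines no locus was called (0 of 43, where 0.151% of all genes were called), and 0 of 43 passed limma's adjusted p with any fold change (0.509% of all genes) or had an unadjusted p below 0.05 (14.5% of all genes). The log2 difference of *slmyb60Cr2* from *slmyb60Cr1* was below 0 for 22 loci (36.1% of all genes) and above 0 for 21, with a range from −0.46 to 0.50, and the 95% interval included 0 for all 43. For Solyc10g086580 the difference was −0.46 (95% interval −0.99 to 0.06, limma adjusted p = 0.402). The call of this locus in one line and not in the other is therefore no evidence of a difference between the lines.

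Of the 45 loci in the table, 2 were below the TPM limit and were not tested with the rest. Solyc06g069000 was between 0.0588 and 0.467 TPM, and Solyc06g069730 between 0.0774 and 1.21 TPM. Both had their highest values in replicate 3 of an edited line, *slmyb60Cr1* for the first and *slmyb60Cr2* for the other, and the genotypes overlapped. No locus was listed at 0 in any library.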

How the data were processed

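The 12 leaf RNA libraries were assigned to genotypes by their titles. The authors trimmed reads with fastp, estimated levels with Salmon on the ITAG 4.0 transcripts and deposited them as TPM, each library summing to 1000000, without pooling. Versions are not given in the sources used here. TPM holds no depth, so the authors' DESeq2 test on Salmon estimates could not be repeated, and counting intervals were not computed. A limit of 0.5 TPM, reached in at least 4 libraries, left 21218 of 33976 genes, which were tested with limma 3.58.1 in R 4.3.3 on log2(TPM + 0.1), a scale that understates changes of low genes, with genotype as the factor and the calling thresholds of the study. limma was tested on simulated data. Permutation tests used scipy 1.17.1 and figures matplotlib 3.10.9.

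The members, lists and thresholds were chosen with earlier results of these data known. Loci described with all values were the 2 with the highest mean TPM, the 2 with the largest mean difference and those past the adjusted p. The rule had asked for this within each protein class, which could not be applied because no identifier was paired with a name. Class sums, other genes of the pathway, promoters and proteins were for the same reason not used here, and 6 marker loci were described by identifier alone. Solyc03g034220, Solyc06g083680, Solyc12g006140, Solyc02g070970, Solyc12g011450, Solyc01g105030, Solyc06g060340 and the loci of the runs were named after their values were seen. P-values weigh the differences between genotypes against the spread between these libraries, each a pool of plants. Alternatives covered the pseudocount, the TPM limit, scaling, the libraries in the fit, the replicate block, the variance model, quality weights and each library left out.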

Additional observations from a re-analysis of the deposited data

Results flagged for a closer look

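Wild type replicate 2 was far from the other wild type libraries for Solyc03g005760, at 7610 TPM against 5699 to 5989 TPM in the other 3. It was the only such library in 24 groups of 4 that were checked, covering 7 named genes and the summed TPM, and chance gives about 1.2. With all libraries the log2 fold change of Solyc03g005760 was −0.26 for *slmyb60Cr1* and −0.46 for *slmyb60Cr2*. Without this library it came to −0.17 and to −0.37, and without *slmyb60Cr1* replicate 1 the value for that line came to −0.12. The locus was called in neither line in any of these fits.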

How the results depend on the processing

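In *slmyb60Cr2* 2 loci were called, and 1 was left without a filter (limma adjusted p of Solyc09g011080 0.05645), where 2 more loci entered and 26889 genes were tested, and 1 without limma's trend (0.05315, cause not tested), counts that also held at any fold change. With array quality weights 3 loci were called and 4 passed limma's adjusted p with any fold change, and the cause was not tested. Leaving out each library gave 0 to 2 called loci, and 0 to 2 at any fold change, with 0 without wild type replicate 2, wild type replicate 3 or *slmyb60Cr2* replicate 2. In *slmyb60Cr1* and between the lines this gave 0 in all 12 fits. In *slmyb60Cr1* 1 locus, Solyc09g011080, was called with array quality weights (limma adjusted p = 0.0316), and the cause was not tested. Without single libraries the log2 fold change of Solyc02g085950 in *slmyb60Cr2*, −0.23 and not called, ran from −0.57 without *slmyb60Cr2* replicate 3 to 0.072, a reversed sign, without *slmyb60Cr2* replicate 1. Under median-ratio scaling and with TPM rescaled over all other genes, the summed difference was −21.9% and −24.0% in *slmyb60Cr1* and −18.8% and −17.5% in *slmyb60Cr2*. Apart from these and the replicate block, the alternatives left the counts of called loci as they were. The replicate numbers are not tied by the labels to a shared batch. Same-numbered libraries of different genotypes correlated at −0.0467 to 0.443 in their deviations, over 0.1 in 8 of 12 pairs. Those of unlike number correlated at −0.453 to 0.368, and 6 of the 12 libraries correlated best with their own number. Whether the numbers mark a shared batch was not tested. With the replicate block, limma called 1 of the 43 loci in *slmyb60Cr1* (Solyc09g011080, limma adjusted p = 0.0281), 1 at any fold change too. Among all genes it called 210 in place of 142 in that line. In *slmyb60Cr2* the same 2 loci were called (limma adjusted p = 0.0132 for Solyc10g086580 and 0.006693 for Solyc09g011080), and 373 genes in place of 298. Between the lines 0 of the 43 loci were called, and 52 genes in place of 32. TPM carries no counting error, and the read totals listed by the paper were not used. The depth behind the lowest loci thus limits what their values can show.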
